A study of Mus musculus with 25 samples.

Results

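White adipose tissue is not uniform: the epididymal pad (eWAT, a visceral depot around the epididymis of males) and the inguinal pad (iWAT, a subcutaneous depot of the groin) differ in development, immune content and the ease with which beige adipocytes appear. The results below describe the genes whose response to a high-fat diet (HFD) differed between these depots. They come from 17 of the 25 bulk RNA-seq libraries of the study, all from wild type (WT) male C57BL/6N mice: 4 eWAT libraries of mice on normal diet (ND), 5 eWAT libraries of HFD-fed mice, 3 iWAT libraries of ND-fed mice and 5 iWAT libraries of HFD-fed mice. The HFD supplied 60% of calories as fat, began at 5 weeks of age and lasted 16 weeks, and ND-fed animals were the controls. The 8 libraries of *Acod1*-/- mice were not used in the comparison. The labels number the libraries within each group but do not say which eWAT and iWAT libraries share a mouse, and RNA was extracted from unsorted tissue, so every cell type present contributed. In such bulk tissue, fewer cells of a type and less RNA per cell cannot be told apart.

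All 4 groups entered 1 fit of raw read counts, and the quantity tested was the interaction: the log2 fold change HFD over ND in eWAT minus the same change in iWAT, called "the difference" here. A positive difference means that the gene rose more, or fell less, in eWAT. A gene was called when the p-value of edgeR's quasi-likelihood F test, adjusted by Benjamini-Hochberg over all 15642 genes tested, was under 0.1, the threshold of the study. Levels are CPM, read counts scaled to a common library size after TMM normalization, and errors of changes are standard errors (SE). A gene was said to be apart in a depot when every HFD-fed library lay on 1 side of every ND-fed library.

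As background, obesity enlarges adipocytes and remodels the tissue around them. Macrophages and lymphocytes enter or expand, antigen-presenting cells display peptides on MHC class II molecules, capillary endothelium and extracellular matrix are rebuilt, and subcutaneous fat of lean mice holds beige adipocytes that burn fuel through the uncoupling protein UCP1. The inguinal pad of a mouse also surrounds a lymph node, a tissue rich in B and T lymphocytes.

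Reads on genes numbered 37860966 to 52335623 per library. White adipocyte markers were abundant in all 17 libraries, with summed levels of 10 genes between 21020 and 54680 CPM. Markers of other tissues set some libraries apart. The 3 ND-fed iWAT libraries carried 444 to 731 summed CPM of 12 T cell markers and 1467 to 2101 summed CPM of 12 B cell markers, above all of the other groups, in which the highest sums were 127 and 992 CPM. Among the HFD-fed iWAT libraries, library 5 held 113 CPM of T cell markers and the other 4 held 14.7 to 24.6 CPM. ND-fed iWAT library 1 held 13180 CPM of 17 skeletal muscle markers, and no other library exceeded 665 CPM. ND-fed eWAT library 2 held 7985 CPM of 3 epididymis markers, HFD-fed eWAT library 5 held 113 CPM, and every other library 61.3 CPM or less. The count columns of the deposited files have names that begin with 1 of 2 number prefixes, called series 1 and series 2 here. The prefixes were treated as a possible batch, and what they mark is not known. All ND-fed libraries and library 5 of both HFD groups belonged to series 2, and the other 8 HFD-fed libraries to series 1. Diet and series therefore nearly coincide, and a fit within series 2 rested on 1 HFD-fed library per depot with 5 residual degrees of freedom. A fit with the series as a term in each depot likewise took each diet change from HFD-fed library 5 alone. Results of these fits are therefore not separate checks of each other.

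The diet response differed between the depots for 5405 of 15642 genes (34.6% of genes tested). The difference was above 0 for 2605 genes (16.7%) and below 0 for 2800 genes (17.9%), and its median size among the genes called was 1.16 on the log2 scale. With scaling by library size alone, which moved the median difference of all genes from -0.05 to 0.07, the same split was 3040 above 0 and 2070 below 0. In eWAT, 4271 genes were higher (27.3%) and 4701 lower (30.1%) on HFD, and in iWAT 3948 were higher (25.2%) and 4286 lower (27.4%). Within series 2, 239 genes were called for the difference. With the series as a term in each depot, 432 were called. With 1 series term shared by both depots, 5458 were called, and 5264 of them were among the 5405. The size of the called set therefore changed little with a shared term. It fell in the fits that handle the series in each depot separately. The part of the series in the result was not tested beyond these fits. At the edge of the threshold, *Dct* was called with a difference of -1.17 and an edgeR adjusted p of 0.099993, and *Espn* was not, with a difference of -1.75 and an edgeR adjusted p of 0.10002.

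Of the 5405 genes, 974 (6.23% of genes tested) changed in opposite directions, with both diet changes and their difference called. Among them, 589 rose in eWAT and fell in iWAT, and 385 fell in eWAT and rose in iWAT. In 414 of the 974, the diets were apart in both depots. Over all genes tested, 449 (2.87%) had libraries apart in both depots in opposite directions. The other genes called were 854 that rose and 1052 that fell in eWAT alone, 911 that rose and 904 that fell in iWAT alone, 214 that moved the same way by more in eWAT, 395 that moved the same way by more in iWAT, and 101 in which neither diet change was called. "Alone" says only that the diet change in the other depot was not called. The count of opposite genes was 624 without ND-fed iWAT library 2 and 88 within series 2, where 76 rose in eWAT and 12 rose in iWAT.

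**Figure D1:**
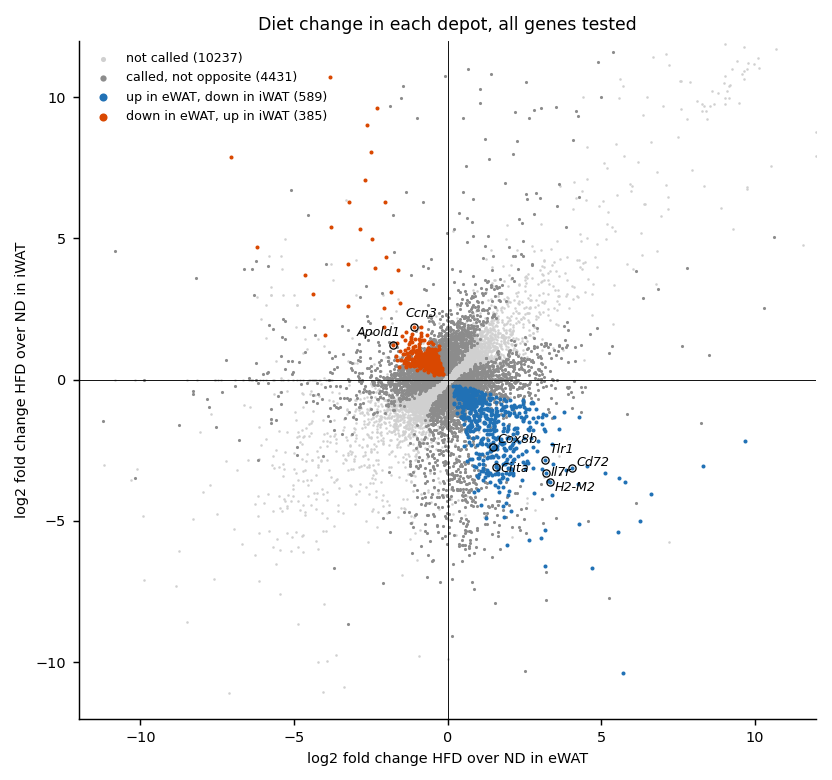
Each point is 1 of 15642 genes, with the log2 fold change HFD over ND in eWAT on the horizontal axis and in iWAT on the vertical axis, and 21 genes beyond 12 log2 units on either axis are not drawn. The 589 genes that rose in eWAT and fell in iWAT lie at the lower right, the 385 with the reverse pattern at the upper left, and circles mark named genes.

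Of 10 MHC class II genes, 7 rose with HFD in eWAT and 9 fell in iWAT. These genes encode the chains that display peptides to CD4 T cells (*H2-Aa*, *H2-Ab1*, *H2-Eb1*), the invariant chain that escorts them (*Cd74*), the DM and DO proteins that control peptide loading, and the transactivator that switches the group on (*Ciita*). All 10 tested members were called with a difference above 0, beside 16.7% of all genes, and their median diet change was 1.57 in eWAT and -1.49 in iWAT. The promoters are shown because they carry a sequence the grouping by function did not use. RefSeq promoter windows (build GRCm38.p6, 250 bases before to 50 after the start) were at hand for 7 of the 10 genes, and 6 of the 7 held the heptamer TGATTGG on either strand, which contains the inverted CCAAT sequence known as the Y box of MHC class II promoters. *H2-DMa* was the member without it. Among all 27025 genes with such a window, 2431 held it (9.0%). The 87 bases around it are printed 5′ to 3′ on the strand of each gene with the heptamer in capitals, and a match is a description of these letters only.
*H2-Aa* (chr17:34287847-34287933, minus strand): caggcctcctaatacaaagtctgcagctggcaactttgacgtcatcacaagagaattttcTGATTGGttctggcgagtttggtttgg
*H2-DMb1* (chr17:34153068-34153154, plus strand): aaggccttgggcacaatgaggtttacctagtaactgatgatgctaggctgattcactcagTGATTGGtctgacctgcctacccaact
*H2-DMb2* (chr17:34145097-34145183, plus strand): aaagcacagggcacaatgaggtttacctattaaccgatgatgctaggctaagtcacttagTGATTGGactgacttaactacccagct
*H2-Eb1* (chr17:34305746-34305832, plus strand): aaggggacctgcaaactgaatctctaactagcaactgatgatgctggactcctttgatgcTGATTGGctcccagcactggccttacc
*H2-Oa* (chr17:34092274-34092360, plus strand): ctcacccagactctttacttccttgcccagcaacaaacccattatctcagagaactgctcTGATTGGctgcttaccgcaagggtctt
*H2-Ob* (chr17:34238786-34238872, plus strand): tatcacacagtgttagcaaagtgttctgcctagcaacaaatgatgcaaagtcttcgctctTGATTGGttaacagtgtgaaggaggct

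*H2-Aa*, the class II alpha chain, stood at 239, 153, 171 and 171 CPM in the ND-fed and 616, 724, 563, 917 and 519 CPM in the HFD-fed eWAT libraries. In iWAT it stood at 419.8, 596 and 494 CPM on ND and 242, 212, 173, 281 and 271 CPM on HFD. The HFD-fed libraries were all higher in eWAT and all lower in iWAT, so that the depot with the higher level changed with the diet. The diet change was 1.86 ± 0.20 (SE) in eWAT and -1.09 ± 0.20 (SE) in iWAT, and the difference was 2.96 ± 0.28 (SE, edgeR adjusted p = 6.67e-06). *H2-Ab1*, *H2-Eb1*, *H2-DMa*, *Cd74* and *Ciita* were also called in opposite directions, with libraries apart in both depots. For *Cd74*, whose product is the invariant chain, the diet change was 1.65 ± 0.19 in eWAT and -1.46 ± 0.20 in iWAT. For *Ciita* the changes were 1.56 ± 0.32 and -3.08 ± 0.34, and its difference of 4.64 ± 0.47 was the largest of the 6 genes called in opposite directions.

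The remaining 4 members split by depot. *H2-DMb1*, which encodes a DM beta chain, rose in eWAT from 21.3, 12.8, 13.2 and 10.6 CPM to 91.4, 104, 107, 124 and 89.4 CPM, and its iWAT libraries overlapped, at 33.8, 55.8 and 39.3 CPM on ND and 50.8, 52.8, 38.92, 47.8 and 35.8 CPM on HFD. Its difference was 2.76 ± 0.29 (SE, edgeR adjusted p = 1.44e-05). *H2-DMb2*, *H2-Oa* and *H2-Ob* went the other way and fell in iWAT alone. *H2-Ob*, a chain of the DO protein found mainly in B cells, stood at 106, 166 and 120.1 CPM in the ND-fed and 1.33, 1.51, 1.97, 1.69 and 11.4 CPM in the HFD-fed iWAT libraries. In eWAT *H2-Ob* stood at 2.52, 2.16, 0.948 and 2.86 CPM on ND and 2.72, 3.01, 3.28, 5.23 and 2.12 CPM on HFD. All values of *H2-Ob* in eWAT were under those of the ND-fed iWAT libraries. The T and B cell sums given above were highest in the same 3 ND-fed iWAT libraries, and their part in the MHC class II result was not tested. Within series 2, 4 of the 10 members were called, all above 0, with a median difference of 2.53 beside 3.06 over all libraries. *H2-Aa* was among them, at 2.39 (edgeR adjusted p = 0.0784).

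Of the 8 genes that rose in eWAT and fell in iWAT by the most, ranked by the smaller of both diet changes, 7 are described here. They were *H2-M2*, *Il7r*, *Cd72*, *Tlr1*, *Zc3h12d*, *Galnt6* and *Nlrc3*, all with libraries apart in both depots, which the choice required. *Il7r* (chr15:9505788-9530176, minus strand, GRCm38), the alpha chain of the interleukin 7 receptor, stood at 8.96, 6.56, 3.996 and 4.38 CPM in the ND-fed and 109, 57.5, 30.97, 51.4 and 24.9 CPM in the HFD-fed eWAT libraries. Its iWAT levels were 57.7, 124 and 56.3 CPM on ND and 13.8, 8.10, 5.50, 5.65 and 7.32 CPM on HFD. The HFD-fed eWAT libraries and the ND-fed iWAT libraries were thus both high and the other groups low. *Il7r* is also a member of the T cell marker list. Its 109 CPM in HFD-fed eWAT library 1 made up most of the 127 CPM summed over that list there. The diet changes were 3.19 ± 0.46 in eWAT and -3.30 ± 0.45 in iWAT, with a difference of 6.49 ± 0.64 (SE, edgeR adjusted p = 1.02e-05), and within series 2 the difference was 5.49 (edgeR adjusted p = 0.0784).

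*Cd72* (chr4:43446462-43454628, minus strand), a B cell surface protein, rose from 3.72, 3.45, 1.28 and 2.92 CPM to 113, 46.5, 15.9, 45.2 and 14.5 CPM in eWAT. In iWAT *Cd72* fell from 55.1, 89.2 and 69.03 CPM to 9.41, 4.06, 5.01, 8.06 and 13.5 CPM. Its difference was 7.18 ± 0.82 (SE, edgeR adjusted p = 2.89e-05). *Tlr1*, a receptor of bacterial lipopeptides, changed by 3.16 ± 0.49 in eWAT and -2.83 ± 0.47 in iWAT. *Zc3h12d*, of the regnase family of RNA-binding proteins, changed by 2.62 ± 0.43 and -2.95 ± 0.42, and *Galnt6*, an enzyme that starts O-linked glycans, by 2.59 ± 0.47 and -2.87 ± 0.46. *Nlrc3*, a NOD-like receptor, changed by 2.89 ± 0.62 and -2.52 ± 0.60.

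*H2-M2*, a non-classical MHC class I gene, stood at 0.526, 0.360, 0.154 and 0.180 CPM in ND-fed eWAT and 2.12, 3.44, 4.16, 2.80 and 3.04 CPM in HFD-fed eWAT. It stood at 19.7, 28.4 and 17.4 CPM in ND-fed iWAT. In HFD-fed iWAT it stood at 0.128, 0.443, 0.0786, 0.496 and 7.71 CPM, so that library 5 held more than the other 4. Its difference of 6.93 ± 1.43 (SE, edgeR adjusted p = 0.00272) had the largest SE of the 7 genes. Within series 2 all of the 7 were called except *Nlrc3*, at 3.09 (edgeR adjusted p = 0.207).

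**Figure D2:**
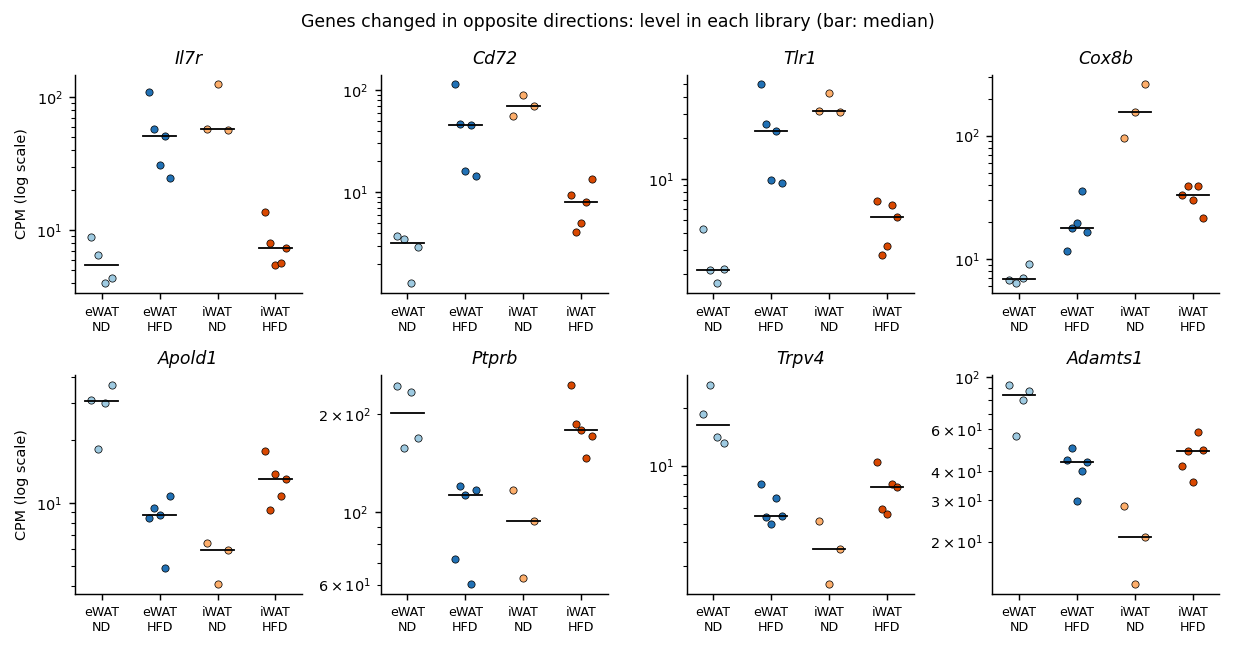
Points are single libraries, the vertical axis is the level in CPM on a log scale, and bars are medians of the 4 groups. *Il7r*, *Cd72*, *Tlr1* and *Cox8b* were high in HFD-fed eWAT relative to ND-fed eWAT and low in HFD-fed iWAT relative to ND-fed iWAT, and *Apold1*, *Ptprb*, *Trpv4* and *Adamts1* showed the reverse.

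The lymphocyte marker lists had differences of the same sign. All 12 T cell markers were called with a difference above 0, beside 16.7% of all genes, and all 12 fell in iWAT, beside 27.4%. In eWAT 4 of the 12 (*Cd8a*, *Il7r*, *Ccr7* and *Cd28*) rose, a share near the 27.3% of all genes. *Cd3e*, a chain of the T cell receptor complex, stood at 37.4, 50.2 and 39 CPM in the ND-fed and 0.969, 0.885, 1.36, 1.69 and 8.48 CPM in the HFD-fed iWAT libraries. In eWAT it stood at 1.47, 1.005, 0.871 and 0.741 CPM on ND and 1.31, 1.76, 0.9998, 3.58 and 0.571 CPM on HFD, and these groups overlapped. Of 12 B cell markers, 11 were called above 0 (91.7%, beside 16.7% of all genes) and *Ighm*, the heavy chain of IgM, was not. *Cr2*, the complement receptor of B cells and follicular dendritic cells, stood at 77, 89.3 and 66.5 CPM in ND-fed iWAT, 0.204, 0.208, 0, 0.198 and 7.63 CPM in HFD-fed iWAT, and 0.656 CPM or less in every eWAT library. *Ighm* rose with HFD in both depots, by 0.84 ± 0.20 and 0.78 ± 0.22. Within series 2, 3 of 12 T cell and 7 of 12 B cell markers were called, all above 0, and the median differences were 2.86 and 3.57, beside 4.72 and 5.72 over all libraries.

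**Figure D3:**
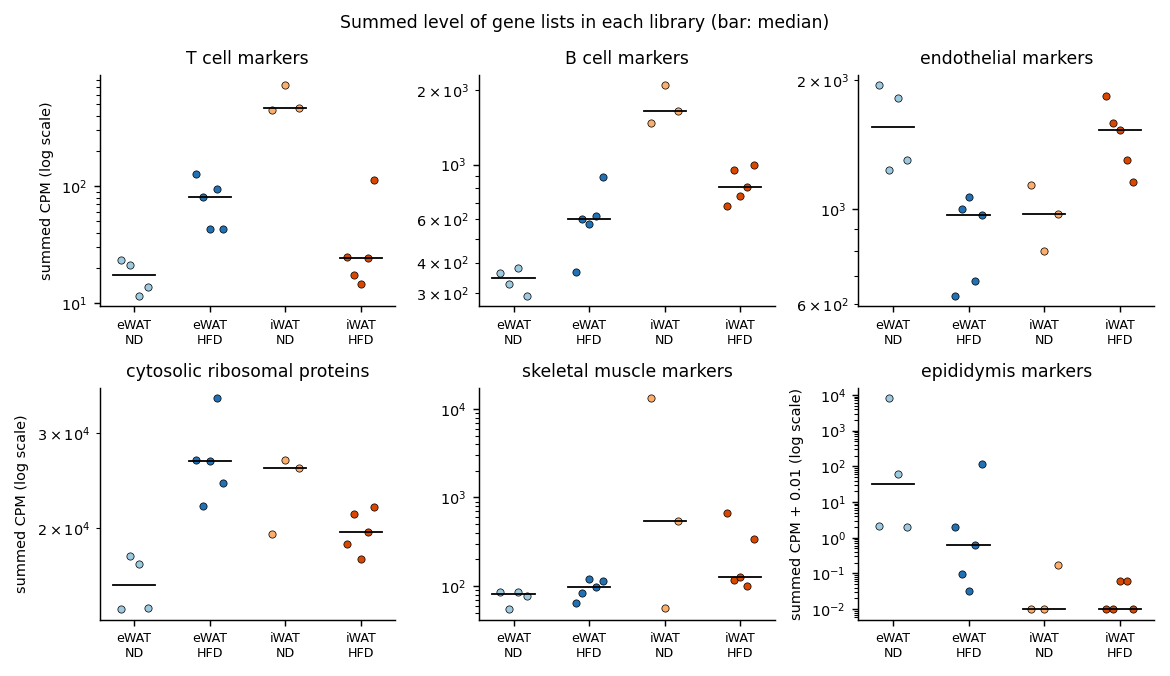
Points are the summed CPM, on a log scale, of the tested members of 6 gene lists in each of 17 libraries, with bars at group medians and 0.01 added to the epididymis sums so that zeros can be drawn. T and B cell sums are highest in the 3 ND-fed iWAT libraries, the endothelial and ribosomal sums move in opposite directions in the depots, and ND-fed iWAT library 1 and ND-fed eWAT library 2 stand apart for skeletal muscle and epididymis markers.

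Among genes that fell in iWAT alone, *Arhgap4*, *Gimap4* and *Tap1* had the smallest interaction p. Such rankings passed over genes under a mean of 5 CPM, predicted gene models and genes that were not apart in the depot that changed. *Arhgap4*, a GTPase-activating protein, stood at 72.6, 116 and 65.8 CPM on ND and 7.12, 2.60, 4.85, 5.65 and 8.38 CPM on HFD in iWAT, with a difference of 4.39 ± 0.44 (SE, edgeR adjusted p = 1.02e-05). *Gimap4*, a GTPase of lymphocytes, stood at 123, 160.3 and 97.9 CPM on ND and 33.3, 30.9, 29.96, 37.3 and 32.05 CPM on HFD in iWAT. *Tap1*, the transporter that brings peptides to MHC class I, stood at 89.8, 104 and 83.2 CPM on ND and 33.2, 34.3, 32.1, 32.3 and 30.5 CPM on HFD in iWAT. The 5 HFD-fed iWAT libraries of *Tap1* lay within 30.5 to 34.3 CPM, and all 9 eWAT libraries within 24.3 to 38.3 CPM. *Arhgap4* and *Tap1* each overlap another tested gene in the annotation, as do *Cd72*, *Tshz2*, *Aldh7a1*, *Col15a1* and *Arpc1b*, and the strand setting of the counting is not given in the sources used here.

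Macrophage genes rose with HFD in eWAT. Of 17 pan-macrophage markers, 16 rose in eWAT and 10 in iWAT. The difference was called for 9 of them (52.9%, beside 34.6% of all genes), all above 0. Without HFD-fed eWAT library 5, or without HFD-fed iWAT library 4, 14 were called, of which 14 and 13 were above 0. Only 2 of the 17 were called within series 2, with a median difference of 1.62 beside 1.76 over all libraries, and 2 with the series as a term in each depot. *Cd68*, a lysosomal protein of macrophages, rose in both depots, by 3.89 ± 0.46 and 2.05 ± 0.48. *Aif1* and *Laptm5* changed in opposite directions. *Laptm5*, a lysosomal membrane protein of blood cells in general, stood at 81.6, 49.5, 57.2 and 50.5 CPM on ND and 479.7, 296, 181, 289 and 143 CPM on HFD in eWAT. In iWAT *Laptm5* stood at 172, 236 and 183 CPM on ND and 101, 51.3, 67.3, 109 and 76.9 CPM on HFD, and its difference was 3.50 ± 0.45 (SE, edgeR adjusted p = 6.63e-05).

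Lipid-associated macrophage markers rose in both depots: 13 of 13 in eWAT and 11 of 13 in iWAT. The difference was called for 3 of 13, *Spp1*, *Itgax* and *Lipa*, a share of 23.1% beside 34.6% of all genes. Leaving out single libraries gave 1 to 5 of 13, with 1 called without ND-fed iWAT library 2. *Spp1*, or osteopontin, changed by 5.36 ± 0.84 in eWAT and 1.20 ± 0.79 in iWAT. For these markers 0 of 13 were called by edgeR within series 2 (1 at an unadjusted p under 0.05), with a median difference of 0.73 beside 0.66 over all libraries. Among 13 resident macrophage markers 5 were called, 4 of them below 0, a share of 38.5% beside 34.6% of all genes, and within series 2 edgeR called 0 (5 at an unadjusted p under 0.05). *Retnla*, a secreted product of alternatively activated macrophages, rose in iWAT by 3.03 ± 0.54 and changed by 0.58 ± 0.43 in eWAT, and *Cd163*, the haemoglobin scavenger receptor, changed by -1.01 ± 0.36 in eWAT and 0.93 ± 0.41 in iWAT.

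Chemokines, the secreted proteins that attract leukocytes, included 12 of 23 called members (52.2%, beside 34.6% of all genes), 10 above 0 and 2 below. The median difference fell from 1.05 to 0.37 within series 2, where 2 of 21 were called, and with the series as a term in each depot 1 of 23 was called. *Ccl5*, *Ccl22* and *Cxcl16* changed in opposite directions. *Ccl22*, a ligand for T cells made by dendritic cells and macrophages, stood at 0.925, 0.721, 1.18 and 0.621 CPM on ND and 2.48, 4.59, 2.33, 5.12 and 2.83 CPM on HFD in eWAT. In iWAT it stood at 25.2, 33.9 and 32.7 CPM on ND and 2.09, 2.73, 0.629, 2.70 and 9.16 CPM on HFD, with library 5 again the highest of the HFD-fed group. Its difference was 5.15 ± 0.77 (SE, edgeR adjusted p = 2.68e-04). *Ccl3*, *Ccl4*, *Ccl8*, *Ccl12* and *Cxcl14* rose in eWAT alone. *Cxcl13*, which attracts B cells, and *Ccl21a*, a chemokine of lymphoid stroma, fell in iWAT alone, with log2 changes of -3.86 ± 0.62 and -5.90 ± 1.16. *Ccl24* and *Cxcl1* rose in both depots and more in iWAT.

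Other immune genes varied. *C3*, the central component of complement, changed in opposite directions and with libraries apart in both depots. It stood at 466.5, 397, 418 and 550.0 CPM on ND and 858, 1394, 894, 1383 and 911 CPM on HFD in eWAT. In iWAT the values were 583, 755 and 562 CPM on ND and 379.8, 232, 291, 391 and 237 CPM on HFD, for a difference of 2.30 ± 0.29 (SE, edgeR adjusted p = 6.71e-05). Within series 2 it was 2.41 (edgeR adjusted p = 0.0712). Over the complement list, 6 of 21 members were called, 28.6% beside 34.6% of all genes, 10 without HFD-fed eWAT library 3 or library 5, and 1 within series 2. Of 22 interferon-stimulated genes 8 were called (36.4%), all above 0, and 4 of them, *Oas3*, *Mx1* and *Zbp1* included, fell in iWAT and rose in eWAT. Of these 22 edgeR called 0 within series 2 (7 at an unadjusted p under 0.05), with a median difference of 0.60 in both fits. *Zbp1*, a sensor of Z-form nucleic acids, changed by 1.74 ± 0.31 and -1.06 ± 0.31.

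Mast cell markers rose in eWAT in 6 of 8 cases, and 7 were called for the difference (87.5%, beside 34.6% of all genes), 6 above 0. The calls did not hold within series 2, where edgeR called 0 of 7 (1 at an unadjusted p under 0.05) and the median difference was 1.48, beside 4.33 over all libraries. With the series as a term in each depot 0 of 8 were called by edgeR (0 at an unadjusted p under 0.05), at a median of 1.21. Their summed level in HFD-fed eWAT ranged from 23.0 to 208 CPM, beside 14.7 to 38.5 CPM in ND-fed eWAT, so that these groups overlapped. *Mcpt4*, a chymase of mast cell granules, stood at 1.78, 1.67, 0.692 and 1.32 CPM on ND and 47.01, 40.9, 3.999, 46.2 and 3.06 CPM on HFD in eWAT.

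Genes of cell division and of the ribosome rose in eWAT. Of 22 cell cycle genes, 22 rose in eWAT, and 3 rose and 3 fell in iWAT. The difference was called for 20 (90.9%, beside 34.6% of all genes), all above 0. *Mki67*, the proliferation marker, changed by 2.28 ± 0.38 in eWAT and 0.20 ± 0.39 in iWAT. *Mcm2*, *Mcm3* and *Mcm5*, subunits of the replicative helicase, changed in opposite directions. *Mcm3* stood at 10.5, 11.4, 10.04 and 9.07 CPM on ND and 39.6, 28.5, 14.7, 34.2 and 15.7 CPM on HFD in eWAT, and at 20.3, 24.9 and 17.6 CPM on ND and 12.8, 11.5, 13.8, 15.4 and 10.5 CPM on HFD in iWAT. Within series 2, 0 of the 21 members with a value were called by edgeR (13 at an unadjusted p under 0.05), with a median difference of 1.65 beside 1.89 over all libraries.

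Cytosolic ribosomal protein genes shifted with the same sign, at a median difference of 1.02, beside a median size of 1.16 among all genes called. The difference was called for 55 of 56 members (98.2%, beside 34.6% of all genes), all above 0, and *Rpl24* at a mean of 0.885 CPM was not called. The median diet change was 0.80 in eWAT and -0.27 in iWAT, and 21 members were called in opposite directions. Their summed level was 14200 to 17830 CPM in ND-fed and 22040 to 34740 CPM in HFD-fed eWAT. In iWAT it was 19500 to 26750 CPM on ND and 17590 to 21920 CPM on HFD, so that the groups were separate in eWAT and overlapped in iWAT. *Rpl12*, of the stalk base of the large subunit, had the largest difference of the list, 1.70 ± 0.23 (SE, edgeR adjusted p = 1.22e-04). It stood at 195, 240.0, 229 and 193 CPM on ND and 467, 364, 422, 589 and 363 CPM on HFD in eWAT, and at 340.3, 522 and 464 CPM on ND and 267, 310.4, 231, 274 and 323 CPM on HFD in iWAT. Ribosomal protein genes share sequence with many processed pseudogenes, so the level of a single member is uncertain. With scaling by library size alone the list's median difference was 1.13 with 55 of 56 called, whereas within series 2 the median was 0.75 and 0 of 56 were called by edgeR (18 at an unadjusted p under 0.05).

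*Pfn1*, *Cotl1* and *H2-DMb1* had the smallest interaction p among genes that rose in eWAT alone. *Pfn1*, or profilin, which feeds actin monomers to growing filaments, stood at 228, 200.4, 224 and 189 CPM on ND and 887, 535, 698, 732 and 674 CPM on HFD in eWAT. In iWAT *Pfn1* stood at 332, 429 and 425 CPM and 423, 436, 358, 407 and 424 CPM, and the diets overlapped. *Cotl1*, a small actin-binding protein, changed by 2.83 ± 0.28 in eWAT and -0.56 ± 0.27 in iWAT, with a difference of 3.39 ± 0.38 (SE, edgeR adjusted p = 2.44e-05). *Arpc1b*, a subunit of the actin-nucleating Arp2/3 complex, rose in both depots but more in eWAT, by 1.69 ± 0.11 against 0.59 ± 0.12. *Frrs1* had the same pattern, at 1.74 ± 0.14 and 0.46 ± 0.15.

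Thermogenic and beige adipocyte genes fell in iWAT. Of 20 members tested, 12 fell and 2 rose in iWAT, and 9 rose and 3 fell in eWAT. The difference was called for 13 (65%, beside 34.6% of all genes), all above 0. *Ucp1*, the mitochondrial uncoupling protein, stood at 2.45, 115 and 599 CPM in the ND-fed and 0.408, 1.85, 0.393, 2.08 and 0.601 CPM in the HFD-fed iWAT libraries. In eWAT *Ucp1* stood at 0.127, 0.0379, 0.128 and 0 CPM on ND and 0, 1.68, 0.0465, 1.59 and 0.102 CPM on HFD. The ND-fed iWAT libraries were the highest but differed widely among themselves. The iWAT change was -7.81 ± 1.29 (SE, edgeR adjusted p = 2.22e-04), the eWAT change was 3.20 ± 1.78 (SE, edgeR adjusted p = 0.148), and fold changes of so few reads in eWAT depend on the prior count.

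*Cox8b*, *Cox7a1*, *Dio2* and *Tmem26* changed in opposite directions. *Cox8b*, a cytochrome c oxidase subunit of brown fat and muscle, stood at 6.69, 6.33, 7.02 and 9.13 CPM on ND and 11.5, 17.7, 19.5, 35.8 and 16.4 CPM on HFD in eWAT. In iWAT it stood at 96.1, 155 and 259.9 CPM on ND and 32.9, 39.1, 29.8, 38.98 and 21.7 CPM on HFD. The diets were apart in opposite directions, with a difference of 3.86 ± 0.45 (SE, edgeR adjusted p = 3.53e-05) that was also called within series 2, at 4.15 (edgeR adjusted p = 0.0784). *Cox7a1* had a difference of 3.36 ± 0.49 and *Dio2*, the deiodinase that activates thyroid hormone, of 4.34 ± 1.07. *Otop1*, a proton channel, rose in eWAT from 2.23, 0.190, 0.538 and 1.36 CPM to 13.8, 20.5, 18.1, 24.3 and 15.8 CPM and overlapped in iWAT. *Cidea*, a lipid droplet protein of brown and beige cells, changed by -2.89 ± 0.54 in iWAT and -0.09 ± 0.52 in eWAT. ND-fed iWAT library 1, which held the skeletal muscle markers, had the lowest *Ucp1*, *Cidea*, *Dio2*, *Cox7a1* and *Cox8b* of its group. Within series 2, 1 of the 20 members was called (5 at an unadjusted p under 0.05) and the median difference was 2.34, beside 2.17 over all libraries.

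**Figure D4:**
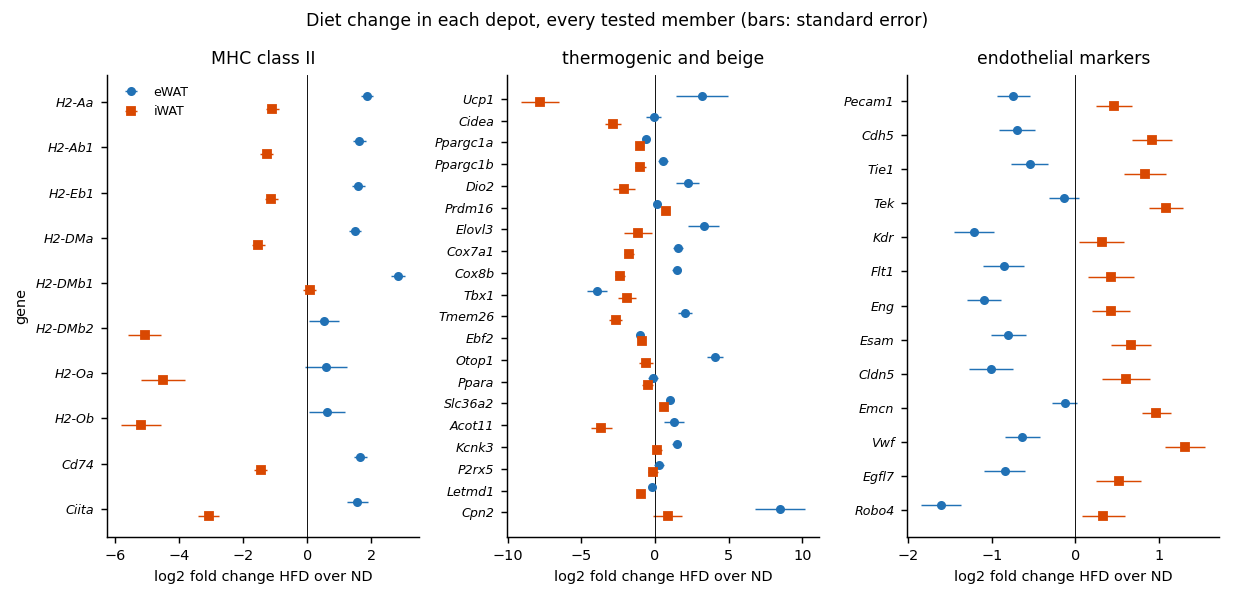
The horizontal axis is the log2 fold change HFD over ND, with circles for eWAT, squares for iWAT and bars for standard errors, and each row is 1 tested member of the list. For the 10 MHC class II genes each eWAT value lies above the iWAT value, and for the 13 endothelial markers each eWAT value lies below it.

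Endothelial genes changed the other way. All 13 endothelial markers were called with a difference below 0, beside 17.9% of all genes, with a median diet change of -0.80 in eWAT and 0.60 in iWAT. In eWAT 11 fell, in iWAT 7 rose, and 5 (*Pecam1*, *Cdh5*, *Tie1*, *Esam* and *Vwf*) changed in opposite directions. Their summed level was 1235 to 1946 CPM in ND-fed and 628 to 1065 CPM in HFD-fed eWAT, and 800 to 1140 CPM in ND-fed and 1155 to 1834 CPM in HFD-fed iWAT, so that the diets were apart in both depots. *Vwf*, the von Willebrand factor of vessel walls, had the largest difference of the 13, at -1.95 ± 0.32 (SE, edgeR adjusted p = 5.18e-04). *Vwf* stood at 59.8, 35.3, 31.97 and 41.04 CPM on ND and 30.1, 31.7, 31.2, 19.7 and 22.8 CPM on HFD in eWAT, and at 22.5, 14.1 and 12.6 CPM and 49.03, 45.1, 38.6, 37.6 and 33.2 CPM in iWAT. *Kdr*, the main VEGF receptor, changed by -1.21 ± 0.24 in eWAT and 0.31 ± 0.27 in iWAT. *Tek*, the angiopoietin receptor, rose in iWAT by 1.09 ± 0.20 and changed by -0.13 ± 0.18 in eWAT. Within series 2 the median difference was -0.90, beside -1.46 over all libraries, and 0 of the 13 were called by edgeR (6 at an unadjusted p under 0.05).

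Genes outside the marker list also fell in eWAT and rose in iWAT. By the same ranking, 7 of the 8 genes with the largest changes of this kind were *Apold1*, *Ccn3*, *Ptprb*, *Trpv4*, *Ntn1*, *Glb1l2* and *Adamts1*. *Ptprb* (chr10:116275523-116389535, plus strand), the phosphatase that restrains angiopoietin and VEGF receptor signalling in endothelium, stood at 245, 158, 234 and 169 CPM on ND and 72.04, 120.5, 113, 60.4 and 117 CPM on HFD in eWAT. In iWAT *Ptprb* stood at 117, 62.7 and 94.3 CPM on ND and 247, 186, 179.5, 147 and 171 CPM on HFD. The HFD-fed iWAT libraries overlapped the ND-fed eWAT libraries, and the HFD-fed eWAT libraries overlapped the ND-fed iWAT libraries. The difference was -2.09 ± 0.35 (SE, edgeR adjusted p = 6.39e-04). *Apold1* (chr6:134981718-134986836, plus strand), an endothelial protein, stood at 31.02, 18.1, 30.1 and 36.7 CPM on ND and 8.46, 9.40, 8.74, 4.86 and 10.7 CPM on HFD in eWAT. In iWAT *Apold1* stood at 6.46, 4.10 and 5.93 CPM on ND and 17.8, 9.27, 13.7, 10.8 and 13.04 CPM on HFD, for a difference of -3.01 ± 0.38 (SE, edgeR adjusted p = 5.76e-05).

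*Trpv4*, a calcium channel, stood at 18.7, 26.3, 14.04 and 13.1 CPM and 7.996, 5.43, 4.999, 6.80 and 5.51 CPM in eWAT on ND and HFD. In iWAT *Trpv4* stood at 5.18, 2.44 and 3.69 CPM and 10.5, 5.93, 5.61, 8.01 and 7.77 CPM. *Adamts1*, a secreted metalloprotease that cleaves proteoglycans, changed by -0.93 ± 0.21 in eWAT and 1.16 ± 0.24 in iWAT. *Ccn3*, a matricellular protein, changed by -1.09 ± 0.34 and 1.87 ± 0.41. *Ntn1*, the guidance protein netrin-1, changed by -1.04 ± 0.24 and 0.97 ± 0.27, and *Glb1l2* by -1.33 ± 0.21 and 0.94 ± 0.24. Within series 2 the differences of the 7 genes ran from -1.69 for *Ptprb* to -3.06 for *Ccn3*, and the smallest edgeR adjusted p was 0.105, for *Apold1*.

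Of 8 smooth muscle and pericyte markers, 5 fell in eWAT, and 7 were called for the difference (87.5%, beside 34.6% of all genes), 6 below 0. In series 2 alone edgeR called 0 of the 8 (6 at an unadjusted p under 0.05), with a median difference of -1.70 beside -1.66 over all libraries. *Myh11*, the myosin of smooth muscle, changed by -2.31 ± 0.23 in eWAT and 0.01 ± 0.25 in iWAT. *Acta2*, smooth muscle actin, changed by -0.29 ± 0.29 in eWAT and rose by 1.65 ± 0.34 in iWAT. *Des*, which skeletal muscle also expresses, was the member called above 0, and ND-fed iWAT library 1 carried the skeletal muscle markers. Without that library and ND-fed eWAT library 2, 6 of the 8 markers were called, all below 0. The part of skeletal muscle in the *Des* call was not tested.

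Of 25 collagens, 20 rose in iWAT, beside 25.2% of all genes, and 12 rose in eWAT, beside 27.3% of all genes. The difference was called for 13 of the 25 (52.0%, beside 34.6% of all genes), 12 of them below 0. Within series 2 this held for 1 of 25 (11 at an unadjusted p under 0.05), with a median difference of -0.55 beside -0.81 over all libraries. *Col15a1*, a basement membrane collagen, stood at 559.9, 473, 544 and 546 CPM on ND and 328, 524, 450.3, 540.5 and 523 CPM on HFD in eWAT. In iWAT it stood at 247, 202 and 202 CPM and 448, 545, 649.7, 694 and 596 CPM, all HFD-fed libraries being higher. Its difference was -1.60 ± 0.22 (SE, edgeR adjusted p = 1.49e-04) and -1.48 (edgeR adjusted p = 0.0784) within series 2. *Col4a1* and *Col4a2*, the common chains of basement membranes, rose in iWAT by 0.98 ± 0.18 and 1.18 ± 0.19, and *Col4a3* and *Col4a4*, the rarer chains, fell in eWAT by 3.02 and 2.49 on the log2 scale. *Col5a3*, *Col4a5* and *Col28a1* fell in eWAT and rose in iWAT. *Col6a5*, the member called above 0, stood at 92.9, 87.1, 35.99 and 68.6 CPM and 159.9, 185, 107, 138 and 97.6 CPM in eWAT and 3.34, 4.002 and 3.60 CPM and 0.918, 0.338, 1.39, 1.36 and 0.435 CPM in iWAT.

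Among 36 genes of matrix crosslinking and proteolysis, 16 were called (44.4%, beside 34.6% of all genes), 15 below 0. Without ND-fed iWAT library 2 or library 3, 9 were called. The series 2 fit called 0 of 35 by edgeR (7 at an unadjusted p under 0.05), with a median difference of -0.39 beside -0.72 over all libraries. *Fn1*, fibronectin, rose by 1.16 ± 0.31 in eWAT and 2.51 ± 0.36 in iWAT. *Timp3*, an inhibitor of metalloproteases, and *Thbs1*, thrombospondin 1, fell in eWAT and rose in iWAT, with differences of -1.79 ± 0.39 and -3.03 ± 0.83. *Mmp3*, the protease stromelysin, was the member called above 0, at 3.80 ± 0.60 in eWAT and 1.41 ± 0.58 in iWAT. *Itga6*, a laminin-binding integrin chain and 1 of 3 genes with the smallest interaction p among those that rose in iWAT alone, stood at 70.5, 55.6 and 60.2 CPM on ND and 179.5, 171, 172, 174 and 139 CPM on HFD in iWAT.

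Signalling and progenitor genes included members of both signs. In TGF-beta and activin signalling 14 of 28 were called (50%, beside 34.6% of all genes), 11 below 0. By edgeR 0 of these 28 were called within series 2 (7 at an unadjusted p under 0.05), with a median difference of -0.38 beside -0.66 over all libraries. *Tgfb1* rose in eWAT by 1.10 ± 0.20 and changed by -0.24 ± 0.21 in iWAT, whereas *Tgfb2* and *Tgfb3* rose in iWAT alone. *Bmp2* fell in eWAT and rose in iWAT, at -1.08 ± 0.20 and 0.52 ± 0.22. *Fstl3*, which binds activins, rose in iWAT by 2.66 ± 0.45 with a difference of -2.26 ± 0.55. Of 18 adipose progenitor markers 13 were called (72.2%), 9 below 0 and 4 above, and 7 without ND-fed iWAT library 2. With the series as a term in each depot, 1 was called. Within series 2 their median difference was -0.45, beside -0.65 over all libraries. *Cd34*, of stem and endothelial cells, and *Pi16*, of fibroblast-like progenitors, rose in both depots and more in iWAT. *Thy1*, *Icam1* and *Cd55* were among the 4 called above 0. Lymphocytes or endothelium also express these genes, and the part of such cells in the calls was not tested. *Sema3c*, a secreted semaphorin, rose in both depots, from 90.2, 90.6, 82.7 and 76.4 CPM to 109, 118, 144, 138 and 149 CPM in eWAT and from 42.03, 23.9 and 30.01 CPM to 122, 135, 133, 171 and 123 CPM in iWAT. *Hox* genes, the positional regulators of the body axis, were called in 9 of 24 cases, a share of 37.5% beside 34.6% of all genes. All 9 were below 0 and 8 of them had fallen in eWAT. The series 2 libraries alone gave 0 called of 24 by edgeR (4 at an unadjusted p under 0.05), with a median difference of -0.53 beside -0.95 over all libraries. *Hoxb9* changed by -2.61 ± 0.34 in eWAT and 0.43 ± 0.37 in iWAT.

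Adipocyte genes called for the difference were mostly below 0. Of 10 white adipocyte markers 6 were called (60%, beside 34.6% of all genes), all below 0, and 3 without ND-fed iWAT library 2. In the series 2 fit 0 of the 10 white adipocyte markers, 0 of 16 adipokines and 0 of 6 genes of fat mass expansion were called by edgeR (0 at an unadjusted p under 0.05). *Adipoq*, which encodes adiponectin, stood at 2851, 2424, 3479 and 3315 CPM on ND and 1080.0, 2021, 2578, 1883 and 2910.0 CPM on HFD in eWAT. In iWAT it stood at 1953, 1853 and 1919 CPM and 2547, 3229, 2949, 2547 and 2752 CPM, higher in all HFD-fed libraries, while the eWAT groups overlapped. The changes were -0.53 ± 0.21 and 0.56 ± 0.23 with a difference of -1.08 ± 0.31 (SE, edgeR adjusted p = 0.0185). *Apln*, the peptide hormone apelin, also changed in opposite directions, and 6 of 16 adipokines were called (37.5%, beside 34.6% of all genes), all below 0. *Lep*, the satiety hormone leptin, rose in both depots, by 2.08 ± 0.38 in eWAT and 3.59 ± 0.47 in iWAT. *Mest*, a marker of fat mass expansion, stood at 196, 91.5, 78.1 and 18.1 CPM on ND and 567.6, 1067, 1523, 834 and 1665 CPM on HFD in eWAT, and at 50.8, 6.12 and 10.4 CPM and 1300.0, 2026, 1855, 1339 and 1354 CPM in iWAT. *Npr3*, the clearance receptor of natriuretic peptides, rose by 0.76 ± 0.35 and 2.89 ± 0.43. Of the 6 genes of fat mass expansion 3 were called (50%), and 1 without ND-fed eWAT library 1, ND-fed iWAT library 2 or ND-fed iWAT library 3.

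Of 12 genes of fatty acid uptake 8 rose in iWAT and 2 in eWAT, and 3 (*Cd36*, *Lpl* and *Gpihbp1*) were called, a share of 25% beside 34.6% of all genes. The count was 5 without ND-fed iWAT library 3 and 0 by edgeR within series 2 (0 at an unadjusted p under 0.05). *Gpihbp1*, which anchors lipoprotein lipase to capillary endothelium, stood at 186, 138, 238 and 159 CPM and 60.03, 110.1, 122, 76.6 and 124 CPM in eWAT and 118, 86.6 and 123 CPM and 233, 222, 192, 154 and 153 CPM in iWAT. The diets were apart in opposite directions, and its difference was -1.67 ± 0.33 (SE, edgeR adjusted p = 0.00199). *Plin1* and *Pnpla2*, the droplet coat protein and the lipase of triglycerides, fell in eWAT by 0.67 and 0.59 on the log2 scale. Of 13 lipolysis and lipid droplet genes 6 were called (46.2%), 5 below 0, and 3 without ND-fed iWAT library 2. With the series as a term in each depot, 0 were called by edgeR (0 at an unadjusted p under 0.05). Within series 2 their median difference was -0.32, beside -0.26 over all libraries. *Slc16a12*, of the monocarboxylate transporter family, had the smallest interaction p of the genes that rose in iWAT alone. It stood at 11.1, 8.78 and 8.73 CPM on ND and 68.9, 96.5, 89.7, 81.3 and 73.2 CPM on HFD in iWAT and at 38.89, 55.5, 35.2 and 26.2 CPM and 34.7, 47.5, 65.1, 48.4 and 58.4 CPM in eWAT, with a difference of -2.72 ± 0.30 (SE, edgeR adjusted p = 2.52e-05).

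Insulin signalling showed 8 called members of 18 (44.4%, beside 34.6% of all genes), 7 below 0. By edgeR 0 of the 18 were called within series 2 (4 at an unadjusted p under 0.05) and 0 with the series as a term in each depot (5 at an unadjusted p under 0.05). *Insr* and *Irs1*, the insulin receptor and its main substrate, fell in both depots and more in eWAT, with log2 changes of -0.90 ± 0.14 and -1.36 ± 0.17 there against -0.39 ± 0.15 and -0.61 ± 0.18 in iWAT. *Grb10*, an adaptor of the insulin receptor, fell in eWAT and rose in iWAT, at -0.44 ± 0.15 and 0.57 ± 0.17. *Ptpn1*, the phosphatase that dephosphorylates the receptor, did the reverse, at 0.41 ± 0.14 and -0.65 ± 0.15. Of 18 adrenergic and natriuretic genes 10 were called (55.6%), 7 below 0. With the series as a term in each depot edgeR called 0 of them (4 at an unadjusted p under 0.05). Within series 2 their median difference was -0.27, beside -0.49 over all libraries. *Npr1* and *Npr2*, guanylyl cyclase receptors of natriuretic peptides, fell in eWAT by 0.71 and 1.25 on the log2 scale.

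*Tshz2*, *Mindy4* and *Aldh7a1* had the smallest interaction p of the genes that fell in eWAT alone. *Tshz2*, a zinc finger transcription factor, stood at 120.1, 132, 122 and 140.5 CPM on ND and 53.6, 58.6, 66.4, 53.4 and 63.6 CPM on HFD in eWAT. In iWAT *Tshz2* stood at 75.2, 59.1 and 63.05 CPM and 62.4, 62.2, 68.3, 64.3 and 76.6 CPM. The HFD-fed eWAT libraries lay near the iWAT libraries of both diets, and the difference was -1.14 ± 0.14 (SE, edgeR adjusted p = 6.12e-05). *Mindy4*, a deubiquitinase, changed by -1.45 ± 0.17 in eWAT and 0.35 ± 0.18 in iWAT, and *Aldh7a1*, an enzyme of lysine breakdown, by -0.86 ± 0.10 and 0.16 ± 0.11. *Dgka*, a diacylglycerol kinase of T cells and other tissues, fell in both depots and more in iWAT, from 104, 154 and 88.95 CPM to 20.03, 13.6, 20.1, 13.02 and 26.4 CPM there.

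**Figure D5:**
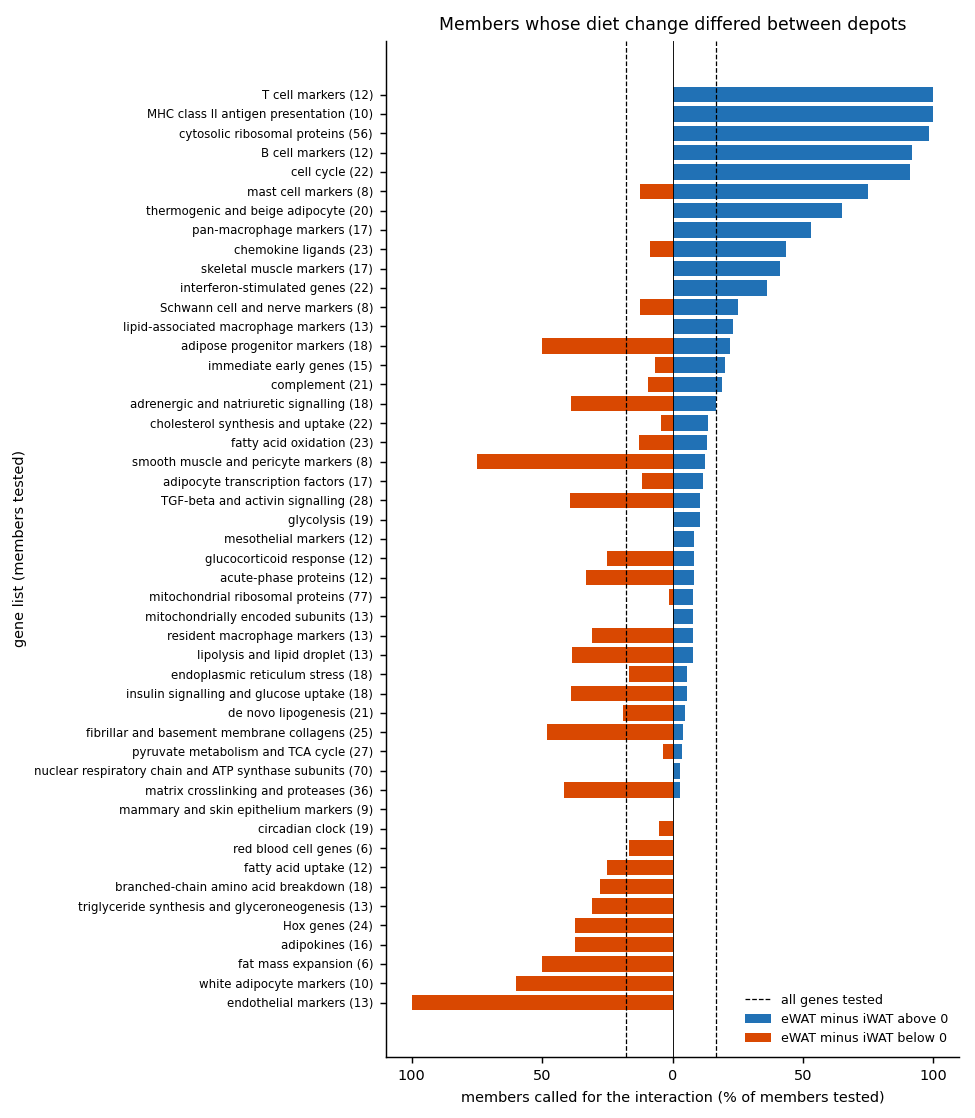
Bars give, for 48 gene lists with at least 6 members tested, the share of members called for the difference above 0 (right) and below 0 (left), and dashed lines mark the shares of all genes tested, 16.7% and 17.9%. T cell, MHC class II and ribosomal lists lie farthest to the right and the endothelial list farthest to the left.

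The shares called were 2.86% to 10.5%, beside 34.6% of all genes, in 5 lists of mitochondrial and carbon metabolism genes. These were the nuclear and mitochondrial respiratory chain genes, mitochondrial ribosome, pyruvate and TCA cycle, and glycolysis lists. Low shares were not particular to them: clock genes had 5.26%, mesothelial markers 8.33%, and mammary and skin epithelium markers 0 of 9 called. Fatty acid oxidation had 6 of 23 called (26.1%), 3 above and 3 below 0. Branched-chain amino acid breakdown had 5 of 18 (27.8%), all below 0. Leaving out single libraries gave 3 to 8 and 3 to 7 in these 2 lists. Of 70 nuclear-encoded OXPHOS genes (respiratory chain complexes and ATP synthase), 2 were called, both above 0, although 34 had risen in eWAT and 4 in iWAT. This count moved with the settings: it was 16 with scaling by library size alone, 16 without ND-fed iWAT library 1, and between 0 and 16 when single libraries were left out. Among 77 mitochondrial ribosomal proteins 7 were called, with 2 to 14 when single libraries were left out, the 14 without ND-fed iWAT library 1. Of 27 genes of pyruvate metabolism and the TCA cycle 2 were called, and 4 with scaling by library size alone. Of 19 glycolysis genes 2 were called, and 5 with scaling by library size alone. Of 19 clock genes 1 was called, and of 13 mitochondrially encoded subunits 1. No test of these counts against all genes was made. Skeletal muscle markers were called above 0 in 7 of 17 cases (41.2%). This count was 1 of 16 without ND-fed iWAT library 1, 14 without ND-fed iWAT library 2, 11 without ND-fed iWAT library 3, 15 without HFD-fed iWAT library 1, and 0 by edgeR within series 2 (0 at an unadjusted p under 0.05). Of 3 epididymis markers 0 were called by edgeR (0 at an unadjusted p under 0.05), whereas DESeq2 called the 1 for which it gave a p-value. Without ND-fed eWAT library 2 and ND-fed iWAT library 1 together, 970 genes changed in opposite directions, beside 974, and 10 MHC class II, 13 endothelial and 55 ribosomal members were called.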

How the data were processed

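Epididymal and inguinal adipose tissue of mice was profiled by mRNA sequencing. The labels do not say which libraries share a mouse. The authors trimmed reads with cutadapt, aligned them with STAR to mouse build mm10 and deposited raw read counts per gene; the counting tool and its strand setting are not given in the sources used here. The deposited FPKM values follow from those counts and gene lengths and were not used for tests. Rows for unassigned reads (no feature 6.41 to 11.2% and ambiguous 1.65 to 2.07% per library) were dropped. The libraries held 37860966 to 52335623 counts on genes, and p-values measure the spread between these samples, part of which may be technical.

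Genes averaging 1 CPM or more in either depot were fitted in edgeR 4.0.16 (R 4.3.3; TMM scaling, quasi-likelihood F test, 4 groups of depot and diet, 13 residual degrees of freedom), and p-values were adjusted by Benjamini-Hochberg over all 15642 genes. The adjusted p threshold was 0.1. SE values are the absolute log2 change divided by the square root of F. A prior count of 2 was used for log2 CPM. Libraries of a group differed by more than sampling noise, with chi-square over degrees of freedom of at least 30.9. On simulated data with 200 changed genes, 43% of those with a log2 difference of 1 and 88% of those with 2 were recovered at the interaction, and 7.75% of calls were unchanged genes. The simulation gave every other gene the same mean in all 4 groups and held no series effect. These rates therefore need not hold for the data. Alternatives were DESeq2 1.42.0, other scalings, filters and thresholds, the series, replicate numbers as a block, and leaving out single libraries.

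The gene lists and the genes described were chosen with earlier results of these data known. Named genes had a mean of at least 5 CPM, and Gm and Rik models were passed over. They were, for each opposite pattern, the 8 apart in both depots with the largest smaller diet change, for each depot and direction the 3 with the smallest interaction p among genes called and apart in that depot alone, and for each larger depot the 2 with the smallest p among genes moving the same way. Of these genes, 2 are not reported here. List members were named where their list is described. Promoter windows came from RefSeq (GRCm38.p6), and gene coordinates from GENCODE vM21 (GRCm38).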

Additional observations from a re-analysis of the deposited data

Results flagged for a closer look

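In 12 of 123 groups of values examined, 1 library lay far from the others of its group by Dixon's ratio, and chance gives about 1 in 20. ND-fed iWAT, with 3 libraries, was too small to be examined. Its library 1, with 13180 CPM of skeletal muscle markers, could therefore not be flagged. HFD-fed iWAT library 5 was the library set apart for *H2-M2* (7.71 CPM, others 0.0786 to 0.496), *Nlrc3* (6.47 CPM, others 0.865 to 1.82), *Itga6* (138.6 CPM, others 171 to 179.5) and the summed T cell markers (113 CPM, others 14.7 to 24.6). In each case its value lay between those of the other HFD-fed and those of the ND-fed iWAT libraries. It is the only series 2 library of its group, so every iWAT diet change within series 2 rests on it. HFD-fed iWAT library 4 was apart for *Ntn1* (34.4 CPM, others 17.4 to 19.9) and *Sema3c* (171.0 CPM, others 122 to 135). In HFD-fed eWAT, library 1 was apart for *Nlrc3* (12.9 CPM, others 3.37 to 5.35) and *Aldh7a1* (42.7 CPM, others 51.7 to 55.0), and library 4 for *Ntn1* (19.9 CPM, others 11.0 to 12.8). ND-fed eWAT library 2 was apart for *Tap1* (24.3 CPM, others 30.3 to 30.9) and the summed epididymis markers (7985 CPM, others 1.94 to 61.3), and HFD-fed eWAT library 5 for the epididymis markers (113 CPM, others 0.0233 to 2.04). The part of these libraries in the results beside which they stand was not tested beyond the fits that leave each of them out.

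The diet effect differed between the depots by the interaction test for 5405 genes, of which 974 changed in opposite directions. Among the named genes that rose in eWAT and fell in iWAT, the log2 differences were 6.93 for *H2-M2*, 6.49 for *Il7r*, 7.18 for *Cd72*, 5.99 for *Tlr1*, 5.57 for *Zc3h12d*, 5.46 for *Galnt6* and 5.42 for *Nlrc3*. Among those with the reverse pattern they were -3.01 for *Apold1*, -2.96 for *Ccn3*, -2.09 for *Ptprb*, -2.56 for *Trpv4*, -2.002 for *Ntn1*, -2.27 for *Glb1l2* and -2.09 for *Adamts1*. For genes that changed in eWAT alone they were 2.76 for *H2-DMb1*, 1.69 for *Pfn1*, 3.39 for *Cotl1*, -1.14 for *Tshz2*, -1.80 for *Mindy4* and -1.03 for *Aldh7a1*. For genes that changed in iWAT alone they were -2.72 for *Slc16a12*, -1.32 for *Itga6*, -1.60 for *Col15a1*, 4.39 for *Arhgap4*, 1.94 for *Gimap4* and 1.56 for *Tap1*. For genes that moved the same way in both depots they were 1.11 for *Arpc1b*, 1.28 for *Frrs1*, -1.47 for *Sema3c* and 1.97 for *Dgka*.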

How the results depend on the processing

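All 32 genes chosen by the naming rule kept the sign of their difference in every alternative that gave a value. The rule picked them from these same libraries for small interaction p or large changes, with diets apart. Fits that share these libraries are therefore no independent check of them. Of 986 such results 959 also stayed past the threshold. The others came only from the series 2 fit and the fit with the series as a term in each depot. With 1 series term for both depots, all 32 stayed past it. With the series as a term in each depot, 23 of 32 were called. The counts depended most on the series: with it as a term in each depot 432 genes were called for the difference (327 above 0, 105 below), 99 changed in opposite directions (84 up and 15 down in eWAT), and 3270 and 3049 changed with diet in eWAT and iWAT. Within series 2 the counts were 239 (197 above 0, 42 below), 88 (76 and 12), 3072 and 3176. With 1 series term for both depots, 5458 genes were called for the difference, 477 were opposite (380 and 97) and 5579 changed in eWAT. A log2 difference of at least 1 left 3108 genes (1686 above 0, 1422 below). An adjusted p under 0.05 left 646 opposite genes, 218 of them down in eWAT, and scaling by library size alone left 232 down in eWAT and up in iWAT. Leaving out single libraries gave 3895 to 5629 genes (1963 to 2703 above 0, 1932 to 2926 below), 624 to 1028 opposite genes (429 to 626 up and 195 to 421 down in eWAT), 8011 to 8946 in eWAT and 6450 to 8584 in iWAT. The lowest of these counts came without ND-fed iWAT library 2, except in eWAT, where it was without ND-fed eWAT library 2. Without ND-fed eWAT library 2 and ND-fed iWAT library 1, a setting chosen after seeing the data, 5085 genes were called.

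The labels do not say whether a replicate number marks a shared mouse. In 4 of 8 same-numbered pairs r exceeded 0.1 (-0.0519 to 0.465, median 0.104 beside -0.0431 for other numbers), 5 of 8 eWAT libraries correlated best with their own number, and pairing was not assumed. With the replicate number as a block 5789 genes were called, and with the number as a block within diet 5707.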
